A study of Mus musculus with 18 samples.

Results

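Genes of the actin cytoskeleton and of focal adhesions, 37 in all, were followed in mouse embryonic stem (ES) cells with and without Cyp26a1. The genes were taken by symbol from the array's annotation, out of 18193 genes that had a probe set of their own. They encode actins, the proteins that cross-link or turn over actin filaments, tropomyosins and non-muscle myosins, adaptors of focal adhesions, integrins, the hyaluronan receptor CD44 and lamin A/C. They were selected on signals of these same arrays, with the levels in the 6 main groups already known, so differences among those groups are given as a description of the selected genes and not as evidence for the selection. Of the 37 genes, 34 were bright enough to be tested, out of 11387 genes tested in all. Itga1, Itga2 and Itgb3, 3 integrin subunits, stayed below 100 signal units on every array.

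The cells were of the AB1 line, wild type or Cyp26a1-/-, the latter called knockout. CYP26A1 is a cytochrome P450 that oxidises and so removes retinoic acid (RA), which is made from vitamin A and is the ligand of the nuclear RA receptors. Each genotype was measured as untreated control cells at 8 h (3 arrays), after 100 nM RA for 8 h (3 arrays) and after 100 nM RA for 72 h (2 arrays), all of them in the presence of LIF (leukemia inhibitory factor), which keeps mouse ES cells from differentiating. A further array of each genotype held control cells kept for 8 h without LIF, which makes 18 arrays. The 72 h cells were compared with the 8 h controls, so the effect of RA and that of time in culture cannot be told apart. The repeats are not said to come from separate cultures, and the error terms measure the spread between these samples, part of which may be technical. The 2 or 3 arrays in a group limit the precision, and the median standard error (SE) of a 72 h difference within a genotype was 0.22 on the log2 scale.

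Actin filaments are built from beta- and gamma-actin in non-muscle cells. Tropomyosins and caldesmon lie along the filament, non-muscle myosin II pulls on it, and alpha-actinins and filamins tie filaments together. At focal adhesions, integrins bind the matrix outside and are joined to actin inside by talin, vinculin, zyxin, paxillin and LIM-domain proteins. Many of these genes are known targets of serum response factor (SRF), whose coactivators are held back by free actin monomer and which binds a short promoter element, the CArG box.

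Several checks of the arrays bear on what follows. Signal of Cyp26a1 was 17.5 to 84.2 units on the wild-type control arrays and 9.81 to 52.6 on the knockout ones, and reached 3211 and 3402 units in wild-type and 2873 and 3075 in knockout cells after 72 h of RA. The probe set is not stated to lie in the deleted part of the gene, so this does not check the genotype labels. Socs3, a gene that LIF switches on, read 367.5 (wild type) and 215.3 (knockout) units on control replicate 1, which is labelled as cultured with LIF, against 3800 and 4551 units on the arrays labelled as without LIF and 2628 to 6001 on all others. The LIF labels of these 4 arrays thus go against the gene, and the 72 h counts are also given without control replicate 1. Markers of undifferentiated ES cells were bright everywhere, with a summed signal over 8 genes of 56320 to 92520 units, and 4 of them fell at 72 h in each genotype. Of 10 markers of extraembryonic endoderm, 9 rose at 72 h in both genotypes, with sums of 20690 and 20930 units in wild-type and 18060 and 18150 units in knockout cells, against 2713 to 7763 on wild-type and 1773 to 3825 on knockout control arrays.

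In wild-type cells, 18 of the 34 genes tested rose and 2 fell after 72 h of RA, and in knockout cells 10 rose and 1 fell. A gene was called where its adjusted p in limma, with Benjamini-Hochberg adjustment over all genes tested, was under 0.05. Over all genes tested, 16.1% were called higher and 8.64% lower in wild-type cells, and 14.8% higher and 8.26% lower in knockout cells. The median log2 difference of the 34 genes was 0.61 in wild-type and 0.20 in knockout cells, beside 0.06 over all genes in each genotype. The knockout median moved to 0.38 without the first knockout 72 h array, to 0.30 without control replicate 1, to 0.29 without control replicate 2, to 0.31 on the log2(signal + 32) scale and to 0.36 with the LIF labels of replicate 1 exchanged. Without the second wild-type 72 h array, 11 genes in place of 20 were called in wild-type cells. With control replicate 1 of both genotypes left out, 19 rose and 2 fell in wild-type cells, and 9 rose and 1 fell in knockout cells. Tgfb1i1 and Cd44 reached 100 units on 72 h arrays only and so had to be higher there to be tested at all. Without those 2 genes, 16 of 32 rose and 2 fell in wild-type cells, and 9 rose and 1 fell in knockout cells. Since these are bulk samples, a change in the share of cells of one type and a change of RNA per cell cannot be told apart.

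**Figure D1:**
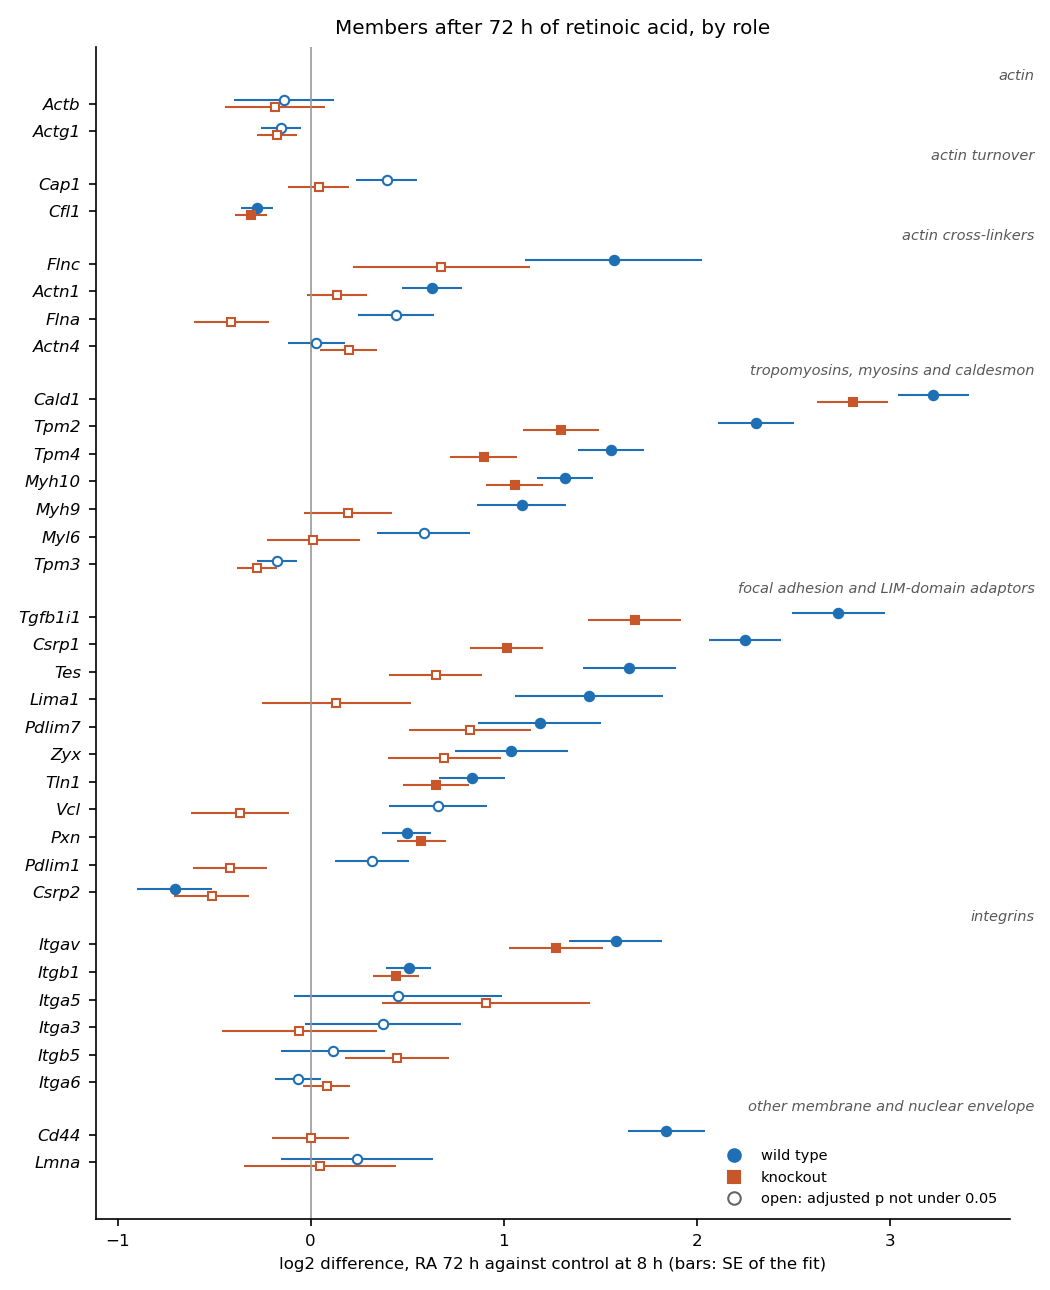
Log2 difference of the 34 genes tested between 72 h of RA and the 8 h control, in wild-type (circles) and knockout cells (squares), grouped by role; bars are the SE of the fit and open symbols missed an adjusted p of 0.05. Tropomyosins, myosins, caldesmon and LIM-domain adaptors reach the highest differences, Cald1 with 3.22 and 2.81, while the actins lie near 0.

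The actins themselves were not called in any comparison. Gamma-actin (Actg1) ran from 28410 to 37810 units over the 18 arrays and differed by -0.15 (SE 0.10) in wild-type and by -0.18 (SE 0.10) in knockout cells at 72 h. Its 72 h arrays, at 28660 and 28980 units in wild-type and 29840 and 28410 in knockout cells, lay below every control array. The lowest control array of Actg1 read 30140 units. Beta-actin (Actb) read 18220, 22390 and 29220 units in wild-type controls, 15420, 27290 and 27340 after 8 h of RA and 20410 and 21080 after 72 h. In knockout cells it read 17950, 22310 and 25010 units in controls, 18840, 21000 and 29810 after 8 h and 16420 and 21920 after 72 h. The groups of Actb overlapped throughout, and its spread followed the replicate number and not the treatment. Replicate 1 was the lowest array of each group of 2 or 3, and in the 4 groups with a replicate 3 that array was the highest. The array's control probe sets for Actb showed the same order: the 3′ one was 1.24 to 1.41 times as bright as the 5′ one on replicate 3 arrays and 1.71 to 2.05 times on replicate 1 arrays, and the middle one ran from 7263 to 25790 units. A 3′/5′ ratio rises as RNA or cDNA becomes shorter, and the part of it in the Actb values was not tested.

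**Figure D2:**
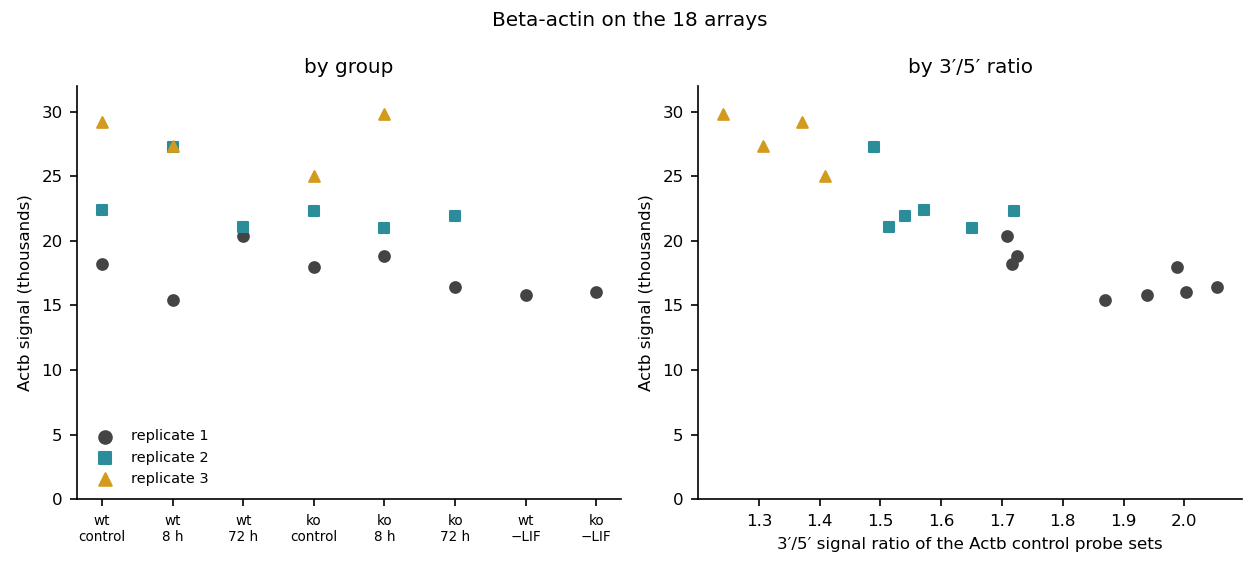
Beta-actin signal (axis in units of 1000) on the 18 arrays by group (left) and against the 3′/5′ ratio of the Actb control probe sets (right), 1 point per array, with the marker giving the replicate number. Arrays of replicate 3 lie at 25010 units or above with ratios up to 1.41, those of replicate 1 at 20410 or below with ratios from 1.71; both axes of the right panel come from probe sets of 1 gene.

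Among the actin turnover proteins, cofilin (Cfl1), which severs filaments, fell at 72 h in both genotypes. In wild-type cells Cfl1 read 18480, 20380 and 20670 units in controls and 16860 and 15830 at 72 h, a difference of -0.28 (SE 0.08). Knockout cells gave 24950, 23990 and 26430 units in controls and 20250 and 20260 at 72 h, a difference of -0.31 (SE 0.08). No 72 h array reached its controls. The wild-type call of Cfl1 ended without either 72 h array or without control replicate 2 or 3, and the knockout call without either 72 h array. Cap1, which recycles actin monomer, differed by 0.39 (SE 0.16) in wild-type and 0.04 (SE 0.16) in knockout cells and was not called.

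Of the 4 cross-linkers, 2 rose in wild-type and none in knockout cells. Filamin C (Flnc), the muscle filamin, was dim: wild-type controls gave 85.7, 69.6 and 138 units and the 72 h arrays 311 and 249, a difference of 1.57 (SE 0.46). Leaving out any 1 of wild-type control replicates 1 and 2 or of the 72 h arrays ended this call. In knockout cells Flnc was 123, 91.2 and 71.4 units in controls and 127 and 174 at 72 h, which lie side by side. Alpha-actinin 1 (Actn1) read 3356, 4635 and 3882 units in wild-type controls and 5864 and 6273 at 72 h, a difference of 0.63 (SE 0.15), beside 0.14 (SE 0.15) in knockout cells, and the call ended without the second 72 h array. Alpha-actinin 4 (Actn4), the other non-muscle form, gave 0.03 (SE 0.15) and 0.20 (SE 0.15). Filamin A (Flna) was not called within either genotype, at 0.44 (SE 0.20) in wild-type and -0.41 (SE 0.20) in knockout cells.

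The filament-binding and motor proteins held the highest differences, with 5 of 7 called higher in wild-type and 4 of 7 in knockout cells. Caldesmon (Cald1), which links actin to myosin and tropomyosin, was at 585, 644 and 555 units in wild-type controls and 5703 and 5398 at 72 h, a 9.34-fold rise (log2 difference 3.22, SE 0.18). In knockout cells it was at 391, 262 and 416 units in controls and 2377 and 2512 at 72 h, a rise of 2.81 (SE 0.18). Both 72 h groups stood far above their controls, and the knockout arrays stayed below the wild-type ones. Beta-tropomyosin (Tpm2) read 435, 353 and 344 units in wild-type controls and 1952 and 1770 at 72 h, a rise of 2.31 (SE 0.20). Knockout cells gave 348, 293 and 256 units and then 808 and 658, a rise of 1.30 (SE 0.20). Tpm4, a tropomyosin of stress fibres, moved from 1482, 2160 and 1708 to 4450 and 6037 units in wild-type cells, a rise of 1.56 (SE 0.17). From 940, 992 and 1076 units it moved to 2010 and 1725 in knockout cells, a rise of 0.90 (SE 0.17). The knockout 72 h level of Tpm4 thus lay within the range of untreated and 8 h wild-type cells, which ran from 1482 to 2160 units. Tpm3, a tropomyosin of most non-muscle cells, ran from 10320 to 14090 units and was not called, at -0.17 (SE 0.10) and -0.28 (SE 0.10).

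The heavy chains of non-muscle myosin II, Myh9 and Myh10, were both called higher in wild-type cells, and Myh10 alone in knockout cells. Myh10 (myosin IIB) rose in both genotypes, from 2943, 2560 and 1939 to 5769 and 6433 units in wild-type cells (1.32, SE 0.15). In knockout cells Myh10 rose from 2664, 2597 and 2357 to 5423 and 5135 units (1.06, SE 0.15). Myh9 (myosin IIA) rose in wild-type cells, from 2669, 3713 and 2311 to 5352 and 6855 units (1.09, SE 0.23), a call that ended without the second 72 h array and, at 0.32, with the mean of all its probe sets. Knockout Myh9 arrays gave 3207, 3618 and 2354 units in controls and 3003 and 3944 at 72 h and overlapped (0.19, SE 0.23). Myl6, the essential light chain, was read by a single probe set of 144 to 288 units and was not called, at 0.59 (SE 0.24) and 0.01 (SE 0.24).

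**Figure D3:**
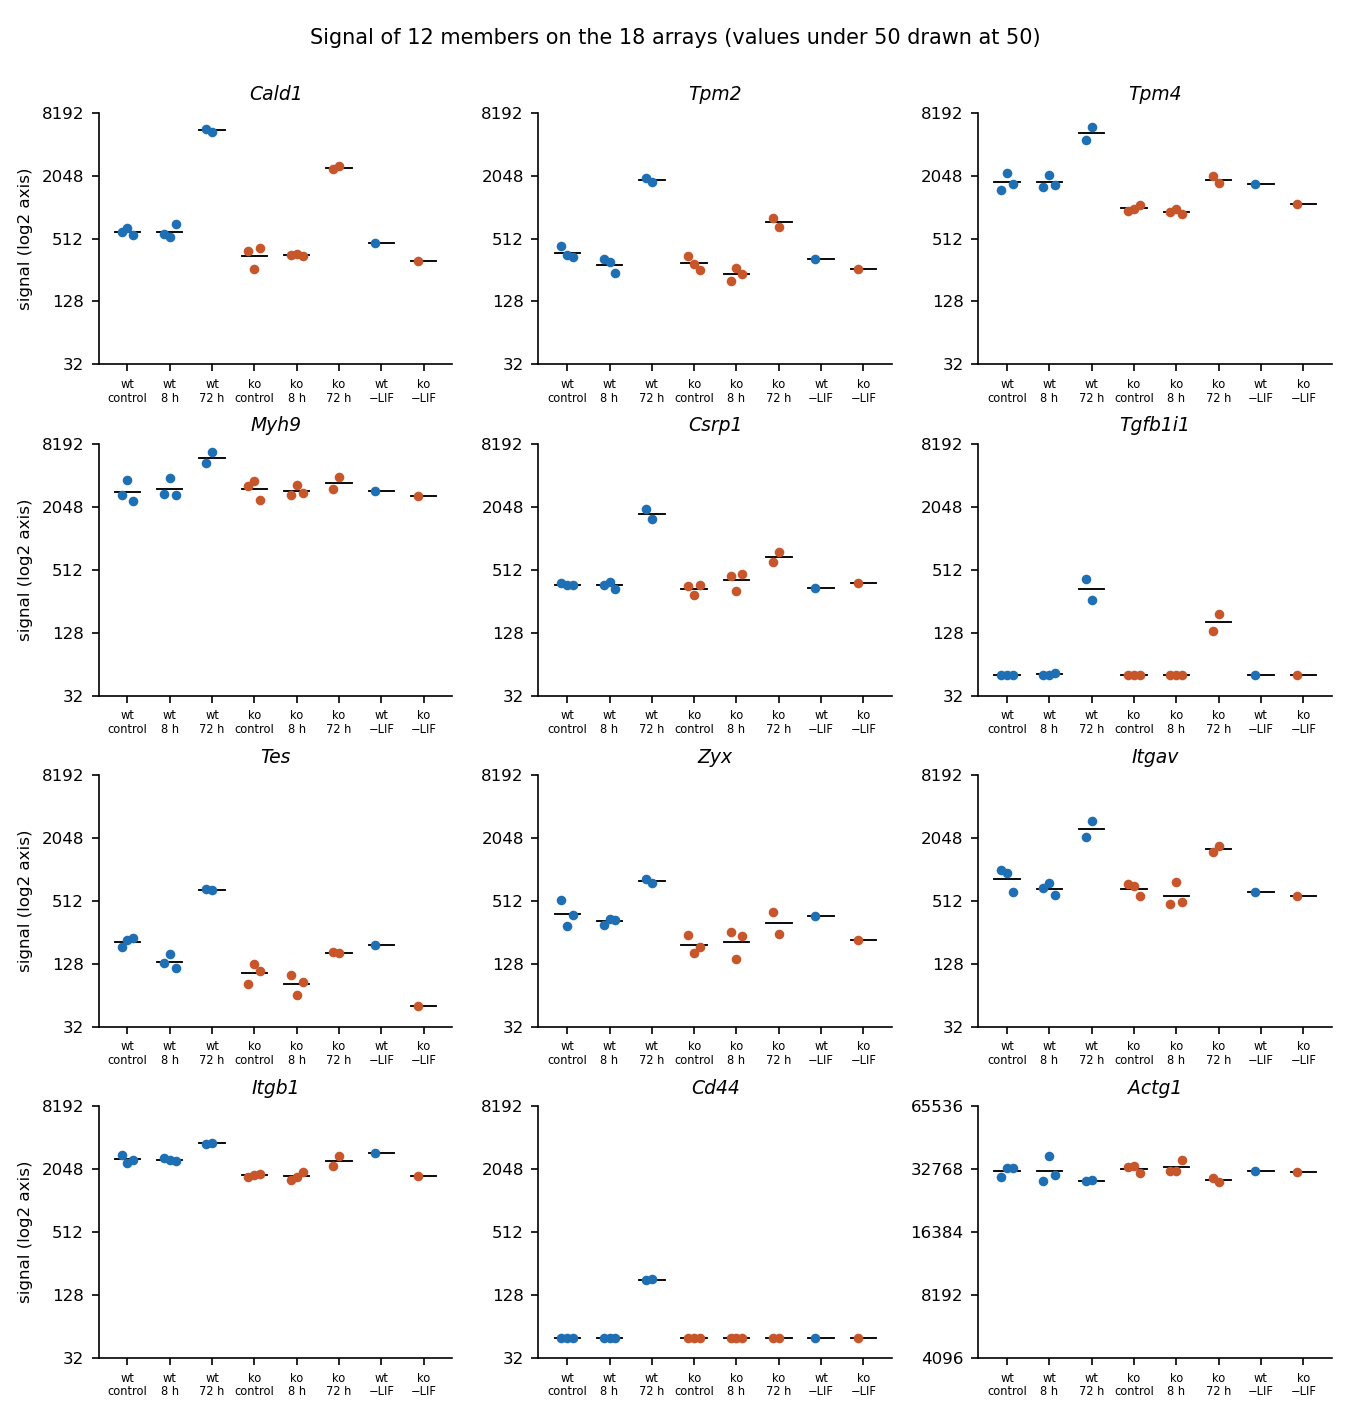
Signal of 12 genes on the 18 arrays on a log2 axis, wild type in blue and knockout in orange, 1 point per array and a line at the mean of log2; values under 50 are drawn at 50. At 72 h Cald1 lies at 5703 and 5398 units in wild-type and 2377 and 2512 in knockout cells, Actg1 lies between 28410 and 29840 in both, and Cd44 exceeds 100 on the 2 wild-type arrays alone.

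Adaptors of focal adhesions and LIM-domain proteins, 11 in number, were called higher in 8 cases and lower in 1 in wild-type cells, and higher in 4 in knockout cells. Hic-5 (Tgfb1i1), a paxillin relative, was below 50 units on all 6 control arrays and read 419 and 263 units in wild-type and 132 and 194 in knockout cells at 72 h. Values under 50 were set to 50, so these are lower bounds: Tgfb1i1 was at least 6.64-fold higher in wild-type and at least 3.20-fold higher in knockout cells. Csrp1, a cysteine-rich LIM protein that binds alpha-actinin and zyxin, moved from 379, 363 and 364 to 1950 and 1577 units in wild-type cells (2.25, SE 0.19). Its knockout values were 362, 294 and 364 units in controls and 611 and 764 at 72 h (1.01, SE 0.19). All 4 of the 72 h arrays exceeded all 6 control arrays, with the knockout ones well under the wild-type ones. Its relative Csrp2 went the other way, from 11370, 8433 and 10230 to 7164 and 5193 units in wild-type cells (-0.70, SE 0.19), and was not called in knockout cells (-0.51, SE 0.19). Without control replicate 1 or the second 72 h array the wild-type call of Csrp2 ended.

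Testin (Tes), a zyxin-binding LIM protein, read 187, 217 and 226 units in wild-type controls and 666 and 648 at 72 h (1.65, SE 0.24). Knockout controls gave 82.4, 127 and 108 units and the 72 h arrays 165 and 162 (0.65, SE 0.24, not called). At 72 h the knockout arrays were therefore still below the wild-type controls. Zyxin (Zyx), which gathers at strained filaments, read 519, 292 and 372 units in wild-type controls and 824 and 755 at 72 h (1.04, SE 0.29). In knockout cells Zyx gave 241, 164 and 183 units and then 397 and 246 (0.69, SE 0.29, not called). The wild-type call for Zyx ended when either 72 h array or control replicate 2 was left out.

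Talin 1 (Tln1), which activates integrins, rose in both genotypes, from 1166, 955 and 1337 to 2200 and 1886 units in wild-type cells (0.83, SE 0.17). In knockout cells it rose from 804, 880 and 1135 to 1496 and 1422 units (0.65, SE 0.17), a call that ended without either 72 h array and, at 0.55, without control replicate 1 of both genotypes. Paxillin (Pxn), a scaffold of adhesion signalling, rose by 0.50 (SE 0.13) in wild-type cells, not called without the first 72 h array, and by 0.57 (SE 0.13) in knockout cells. Lima1, which bundles filaments, rose by 1.44 (SE 0.39) in wild-type cells and differed by 0.13 (SE 0.39) in knockout cells, and the wild-type call ended without the second 72 h array. Pdlim7 (enigma) rose by 1.19 (SE 0.32) in wild-type cells, a call that ended without the first 72 h array, and differed by 0.83 (SE 0.32) in knockout cells. Vinculin (Vcl), which reinforces the link from talin to actin, was called in neither genotype but its values parted: wild-type controls read 1818, 1779 and 1109 units and the 72 h arrays 2209 and 2639 (0.66, SE 0.25). Knockout Vcl arrays read 2373, 1621 and 1577 units and then 1539 and 1300 (-0.37, SE 0.25). Pdlim1 showed the same kind of pair, with 0.32 (SE 0.19) and -0.42 (SE 0.19), neither of them called.

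Among the 6 integrin subunits tested, Itgav and Itgb1 were called, both higher in both genotypes. Itgav, the alpha-v subunit of vitronectin receptors, moved from 1005, 941 and 618 to 2113 and 2957 units in wild-type cells (1.58, SE 0.24). Knockout Itgav moved from 741, 716 and 569 to 1521 and 1725 units (1.27, SE 0.24). Itgb1, the beta subunit shared by most matrix receptors, moved from 2816, 2346 and 2536 to 3608 and 3669 units in wild-type cells (0.51, SE 0.12). In knockout cells the probe set that stood for Itgb1 moved from 1722, 1818 and 1862 to 2201 and 2712 units (0.44, SE 0.12), but the mean over its probe sets gave -0.01. Each of the calls of Itgb1 ended without the second 72 h array of its genotype. The subunits not called were Itga3, Itga5, Itga6 and Itgb5, with differences between -0.07 and 0.45 in wild-type and between -0.06 and 0.91 in knockout cells. Itga5 and Itga3, alpha subunits of fibronectin and laminin receptors, were the least precise of the integrins, with SEs of 0.54 and 0.40.

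CD44, a receptor for hyaluronan that ties the membrane to actin, was detected in 1 group. Cd44 read 178 and 181 units in wild-type cells at 72 h and 4.03 to 47.2 units on the 16 other arrays, among them 37.7 and 33.1 at 72 h in knockout cells. It was thus at least 3.59-fold higher in wild-type cells at 72 h than in their controls, and than in knockout cells at 72 h, and it passed the filter on dim genes through those 2 arrays alone. A second probe set of Cd44 gave 1.44 (SE 0.23) in wild-type and 0.03 (SE 0.23) in knockout cells. Lamin A/C (Lmna), a protein of the nuclear envelope, was not called. Its control replicate 1 arrays stood apart, with 385 units in wild-type and 418 in knockout cells against 958, 976, 982 and 1115 on the other controls, the same 2 arrays that were low in Socs3. The arrays labelled as without LIF read 988 and 1179 units for Lmna.

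After 8 h of RA none of the 34 genes was called in either genotype, by limma with adjustment over all genes. Over all genes tested 0.79% were called higher and 0.114% lower in wild-type cells, and 0.861% and 0.0966% in knockout cells. The median of the 34 was -0.002 in wild-type and -0.01 in knockout cells. At an unadjusted p under 0.05, Tes (-0.64, SE 0.22), Tpm2 (-0.38, SE 0.18), Tln1 (0.42, SE 0.15) and Itga6 (-0.23, SE 0.11) differed in wild-type cells, 4 genes beside 895 of all genes. Itga6 (-0.28, SE 0.11) was the single such gene in knockout cells, beside 986 of all genes. Tes, Tpm2 and Tln1 are named here for these values. For Tes the 8 h arrays read 130, 160 and 117 units, below the controls, before the higher level at 72 h. The 8 h responses did not differ between genotypes for any gene tested, with 0% called in each direction over all genes and 211 of them at an unadjusted p under 0.05, none of those among the 34.

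Some of the genes already differed between the genotypes in untreated cells. Of the 34 genes, 2 were higher and 5 lower in knockout controls, where 1.83% of all genes tested were called higher and 2.81% lower. Higher were Cfl1, by 0.34 (SE 0.07), and Pdlim1, a PDZ and LIM protein that binds alpha-actinin. Pdlim1 read 5174, 3707 and 3608 units in knockout and 2690, 2171 and 1752 in wild-type controls, a difference of 0.92 (SE 0.17). Lower were Tes (-1.003, SE 0.22), Zyx (-0.99, SE 0.26), Tpm4 (-0.82, SE 0.15), Cald1 (-0.77, SE 0.16) and Itgb1 (-0.51, SE 0.11). With the mean of all probe sets the call of Itgb1 ended in controls (-0.09) and at 8 h (-0.23), as did those of Cald1 (-0.63 and -0.48), and those of Zyx (-0.49) and Cfl1 in controls. In each of the 7 genes the knockout and wild-type control arrays did not overlap. After 8 h of RA 1 gene was called higher, Pdlim1 (0.76, SE 0.17), and 3 lower, Tpm4 (-0.93, SE 0.15), Cald1 (-0.74, SE 0.16) and Itgb1 (-0.53, SE 0.11), beside 1.7% higher and 2.91% lower over all genes. Without wild-type control replicate 1 the control count was 4 in place of 7, and without control replicate 1 of both genotypes it was 2. With each control array left out in turn, the calls of Tpm4 and Pdlim1 held, and that of Zyx ended without wild-type replicate 1 or 3 or knockout replicate 2 or 3. The 8 h count was 1 without knockout replicate 1, and 2 without replicate 3 of either genotype, in place of 4. Markers of extraembryonic endoderm were also lower in knockout controls, with none of the 10 above 0 and a median of -1.04. The 3 called lower were Gata6 (-2.13, SE 0.33), Amn (-1.47, SE 0.33) and Pdgfra, at or below 50 units in knockout controls. After 8 h the median of the 10 was -0.92 and 2 were called lower. At 72 h, where the genotype difference of the 34 genes was wider, the median of the 10 markers was -0.18. There 4 of the 10 were above 0 and none was called. Their difference of the 72 h responses, knockout minus wild type, was above 0 for 9 of the 10, with a median of 0.96 and 1 called higher. Their part in the genotype differences was not tested.

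The chromosomes of the called genes repeated themselves. Cfl1 and Pdlim1 lie on chromosome 19, which also carries Cyp26a1, and Tpm4 and Itgb1 on chromosome 8, and no further gene of the 34 lies on either. The 414 genes tested on chromosome 19 had a median genotype difference of 0.47 in controls, 0.48 at 8 h and 0.48 at 72 h. The 638 genes on chromosome 8 had medians of -0.25, -0.24 and -0.29. In controls Tpm4 and Itgb1 were lower than the median of their chromosome, Pdlim1 was above that of chromosome 19 and Cfl1 (0.34) below it. With the 4 genes of these chromosomes left out, 3 genes remained called in controls (Tes, Zyx and Cald1) and 1 after 8 h of RA (Cald1). Tes, Zyx and Cald1 all lie on chromosome 6, as does Flnc, which was not called in controls. The median genotype difference of chromosome 6 was not computed. The part of chromosomes 6, 8 and 19 in the genotype differences of these genes was not tested.

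The arrays without LIF gave a further look at the untreated genotypes, with 1 array for each genotype and no test. They were in none of the 6 groups. Both carry replicate number 1, however, their LIF labels are in doubt, and arrays of the same number tended to deviate together in the 6 groups. They may therefore not be independent of control replicate 1. Tpm4 read 1701 units in wild-type and 1101 in knockout cells, Itgb1 2898 and 1763, and Cald1 468.5 and 312.4. Zyx read 363.2 and 217.3 units, and Tes 194.9 and 31.6. Pdlim1 read 2499 and 3649 units and Cfl1 19790 and 26260. All 7 genes differed in the direction of the controls with LIF, as did 97% of the 528 genes called in the controls. Over the 34 genes tested, called or not, 22 shared the direction, which is 64.7% beside 66.8% over all genes. Withdrawal of LIF, fitted over both genotypes, was called in none of the 32 genes tested there and in 0% of all genes in each direction, with the labels as given. With the LIF labels of replicate 1 exchanged, 1 of the 32 was called lower, and 60 genes in all were called higher and 132 lower. Actb, with -0.48 (SE 0.17), was the single gene of the 32 at an unadjusted p under 0.05, beside 286 of 10475 genes, and both arrays without LIF are replicate 1.

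After 72 h of RA the genotype difference was wider. None of the 34 genes was called higher and 10 were called lower in knockout cells, beside 1.39% higher and 2.68% lower over all genes. With the LIF labels of replicate 1 exchanged, 2 were called higher and 10 lower, and without control replicate 1 of both genotypes none and 9, Tgfb1i1 being lost. These 10 were Tes (-2.00, SE 0.26), Cd44 (at least 3.59-fold lower), Tpm4 (-1.48, SE 0.19), Csrp1 (-1.36, SE 0.21), Tpm2 (-1.35, SE 0.22), Zyx (-1.34, SE 0.32), Cald1 (-1.18, SE 0.20), Tgfb1i1 (-1.05, SE 0.26), Flna (-0.88, SE 0.21) and Itgb1 (-0.57, SE 0.13). Without Tgfb1i1 and Cd44, which were tested through their 72 h signal alone, 8 of 32 were lower. Of the 10, Tes, Tpm4, Zyx, Cald1 and Itgb1 had been lower in controls too, while Flna, Tpm2, Tgfb1i1, Csrp1 and Cd44 had not been called there. Flna read 2838 and 2359 units in wild-type and 1420 and 1399 in knockout cells at 72 h, against 1484 to 2224 over the controls of both. Cfl1 and Pdlim1, higher in knockout controls, were at 0.31 (SE 0.09) and 0.18 (SE 0.21) at 72 h and were not called. Leaving out either wild-type 72 h array gave a count of 5 in place of 10. The calls of Tes, Tpm4, Csrp1, Tpm2 and Cald1 held with each 72 h array left out, and that of Flna ended without any 1 of them. Those of Zyx, Tgfb1i1 and Itgb1 each ended in 3 of these 4 fits.

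Counted by overlap, both knockout arrays lay below both wild-type arrays at 72 h in 20 of the 34 genes, beside 26% of all genes, and above them in 4, beside 22.7%. In controls every knockout array was below every wild-type array in 5 genes, beside 10.3% of all genes, and above in 4, beside 9.29%. After 8 h the counts were 7, beside 11.8%, and 3, beside 8.65%. The median genotype difference of the 34 was 0.02 in controls and at 8 h and -0.41 at 72 h, where the median of all genes was -0.01. By role, the 72 h medians were -0.82 for the 7 tropomyosins, myosins and caldesmon, -0.77 for the 11 adaptors, -0.61 for the 4 cross-linkers and -0.27 for the 6 integrins, and -0.06 for the 2 actins.

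**Figure D4:**
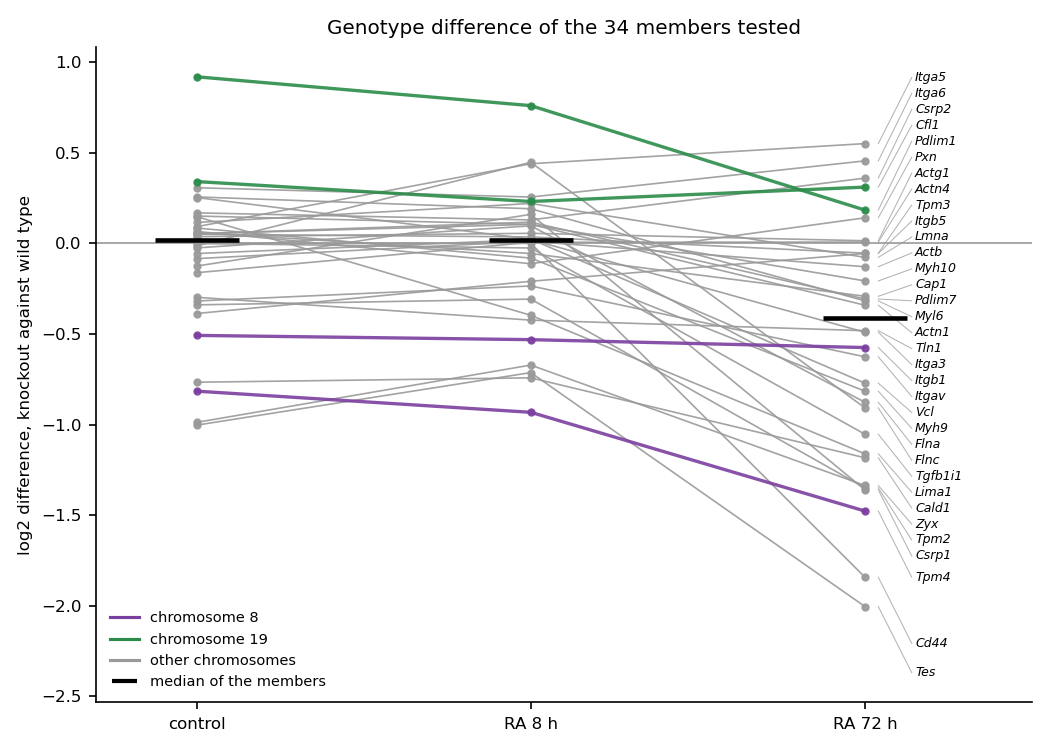
Log2 difference between knockout and wild type for the 34 genes tested in controls, after 8 h and after 72 h of RA, with 1 line per gene, chromosomes 8 and 19 coloured and black bars at the median. The median is at 0.02, 0.02 and -0.41; Tes reaches -2.00 at 72 h, and Pdlim1 on chromosome 19 goes from 0.92 to 0.18.

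The difference of the 72 h responses, knockout minus wild type, was below 0 for 28 of the 34 genes, 82.4%, beside 49.1% of all genes, with a median of -0.36 beside 0.01. These 28 include Cfl1, which fell in both genotypes. Among the 32 genes other than Tgfb1i1 and Cd44, 26 were below 0 and none was called, beside 0.316% of all genes called lower and 0.0263% higher. Cd44, at -1.84 (SE 0.28) as computed from values set to 50, was called lower, but the filter admitted it only because the wild-type 72 h arrays were high, so the call adds nothing to the levels given above. The lowest differences among the genes not called were those of Lima1 (-1.31, SE 0.54), Csrp1 (-1.24, SE 0.27), Tgfb1i1 (-1.05, SE 0.34, with all its controls set to 50), Vcl (-1.02, SE 0.36), Tpm2 (-1.01, SE 0.28), Tes (-1.002, SE 0.34) and Myh9 (-0.90, SE 0.32). Smaller differences of response were found for Itgb1 (-0.07, SE 0.17), Pxn (0.08, SE 0.18), Tln1 (-0.18, SE 0.24) and Cald1 (-0.42, SE 0.26), genes that rose in both genotypes. Without control replicate 1 of both genotypes, or without the second knockout 72 h array, none of the 34 was called.

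Other probe sets of these genes shared the sign more often at 72 h than elsewhere. Beyond the 1 that stood for each gene, 41 probe sets of 25 genes were bright enough to test. The sign was shared by 39 of 41 for the 72 h difference in wild-type cells, by 32 in knockout cells, and by 35 for the genotype difference at 72 h. After 8 h of RA it was shared by 28 and 30, and for the genotype difference by 23 in controls and 29 at 8 h. With the mean of all probe sets in place of the brightest, the 72 h rises of Itgav (0.64 in wild-type and 0.46 in knockout cells), Myh10 (0.66 and 0.53), Tpm2 (1.45 and 0.57) and Cald1 (1.90 and 1.70) were smaller and still called. Those of Tln1 (0.45 and 0.36) and, in wild-type cells, Itgb1 (0.33) were smaller and no longer called, as were the genotype differences of Zyx (-0.67), Cald1 (-0.84) and Itgb1 (-0.44) at 72 h. The 72 h calls of Pxn and Cfl1 in both genotypes, and of Actn1 and Myh9 in wild-type cells, also ended with that mean. Only for Pdlim7 did another probe set differ in the opposite direction at an unadjusted p under 0.05, in the genotype difference of controls (-0.50 beside 0.05) and at 8 h (-0.53 beside 0.12).

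Further genes of the same machinery were read from lists that were also drawn up with earlier results of these arrays known. Of 9 muscle actins, calponins and other tropomyosin tested, 6 rose in wild-type cells at 72 h and none fell. Over all genes tested 16.1% were called higher there and 8.64% lower. Transgelin (Tagln), an actin-bundling protein of smooth muscle, was at least 81.6-fold higher in wild-type cells. Tagln reached 3654 and 4552 units there, and 67.5 and 127.6 in knockout cells, which was at least 1.86-fold over their controls. In knockout cells 2 of the 9 rose and 1 fell, and between genotypes at 72 h 7 of 9 were lower in knockout cells, with Tagln (-5.46, SE 0.27), Acta1 (skeletal actin), at least 10.8-fold lower, and Tpm1 (-2.63, SE 0.29) first. Tagln and Cnn1 passed the filter on dim genes through 72 h arrays only, Cnn1 through the wild-type ones alone. Both thus had to be higher there to be tested at all. Acta1 read at most 122.1 units elsewhere and also needed the wild-type 72 h arrays to be tested. The counts of 6 and 7 include genes of this kind, so part of them rests on the filter. Smooth muscle actin (Acta2) read 1859 and 3757 units in wild-type and 157.6 and 152.1 in knockout cells.

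Of 9 known target genes of SRF and of YAP, a coactivator driven by cell tension, 4 rose and 1 fell in wild-type cells, and 1 rose and 1 fell in knockout cells at 72 h. Over all genes tested 16.1% were called higher and 8.64% lower in wild-type cells, and 14.8% and 8.26% in knockout cells. Egr1, an immediate early gene, fell in both (-2.08, SE 0.37, and -2.23, SE 0.37). Ccn1 (Cyr61), a matrix-associated YAP target, was at 954 and 1058 units in wild-type and 214 and 183.9 in knockout cells at 72 h. Ccn1 was also lower in knockout controls (-1.72, SE 0.27), as was Ccn2, at -1.42 (SE 0.31). Between genotypes at 72 h, 4 of the 9 were lower and none higher, Ccn1 (-2.34, SE 0.33), Axl (-1.72, SE 0.26) and Amotl2 (-1.34, SE 0.22) first. Axl passed the filter on dim genes through the wild-type 72 h arrays alone, with 170.5 and 194.2 units. It read 51.8 and 59.2 units in knockout cells at 72 h. Axl had to be higher in wild-type cells to be tested at all, so its call adds nothing to these levels. Of the 9 genes for SRF and YAP factors themselves, 3 rose in wild-type and 2 in knockout cells, with Tead1, a DNA-binding partner of YAP, at 1.25 (SE 0.13) and 1.49 (SE 0.13). None of these 9 was called between genotypes at 72 h.

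In the other lists given here, 2 genes differed between genotypes at 72 h, where 1.39% of all genes tested were called higher and 2.68% lower. Their shares of genes called at 72 h can be read against the 16.1% higher and 8.64% lower over all genes in wild-type cells, and 14.8% and 8.26% in knockout cells. Of 23 other focal adhesion proteins tested, 5 rose and 1 fell at 72 h in each genotype, and none was called between genotypes at that time. Parvin alpha (Parva), which joins integrin-linked kinase to actin, led them, with 3.07 (SE 0.34) in wild-type cells. Of 23 other actin assembly and turnover proteins, 8 rose and 2 fell in wild-type and 7 rose and 2 fell in knockout cells, among them Cfl2, the muscle cofilin, at 1.23 (SE 0.12) and 1.26 (SE 0.12). Thymosin beta 4 (Tmsb4x), which holds actin monomer, fell in both and was the 1 gene of that list lower in knockout cells at 72 h (-0.63, SE 0.14). Among 13 genes of the Arp2/3 and WAVE complexes, which start branched filaments, 2 rose in wild-type cells and 1 in knockout cells, Arpc5 in both (0.54, SE 0.12, and 0.34, SE 0.12). Of 7 other integrin subunits, none rose and 1 fell in wild-type cells, and 1 rose and 1 fell in knockout cells, Itgb7 falling in both (-0.97, SE 0.23, and -0.88, SE 0.23). Of 6 integrin ligands of the matrix, 2 rose in wild-type cells, thrombospondin (Thbs1) and fibronectin (Fn1), and 1 in knockout cells, Fn1, while Thbs1 was lower in knockout cells at 72 h (-2.11, SE 0.37). Of 8 nuclear envelope proteins, Sun2 alone rose in each genotype, by 0.996 (SE 0.20) and 0.93 (SE 0.20).

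Some markers of contractile cells moved with these genes. Of 7 smooth muscle markers, 5 were tested, and 3 (Tagln, Acta2 and Cnn1) rose in wild-type and 2 (Tagln and Des) in knockout cells at 72 h. Tagln and Cnn1 passed the filter on dim genes through 72 h arrays only, and so had to be higher there to be tested. Of the 3 that rose in wild-type cells, Acta2 alone was bright enough to be tested without the 72 h arrays. The summed signal of 7 smooth muscle markers was 6464 and 9152 units in wild-type and 920.6 and 731.8 in knockout cells at 72 h, against 515.7 to 848 on the control arrays, with Myh11 and Actg2 at or below 50 units on both wild-type 72 h arrays. Acta2 and Tagln made up most of the wild-type sum, while Smtn read 348.5 and 317.4 units there against 360.4 to 414.2 on the wild-type controls. For 12 markers of fibroblast feeder cells the sum was 1509 and 2337 units in wild-type and 1139 and 897.3 in knockout cells at 72 h, against 838.7 to 1106 on control arrays. Of these, 3 were tested: Pdgfrb (3.30, SE 0.28) and Col5a1 (0.95, SE 0.20) rose and Thy1 (-2.51, SE 0.39) fell in wild-type cells, and Pdgfrb rose (2.80, SE 0.28) and Thy1 fell (-2.02, SE 0.39) in knockout cells. On the second wild-type 72 h array Col1a1 read 302 units, Col1a2 432, Col3a1 253 and Dcn 210, where the first read 76.8, 91.3, 56.6 and 24.2. S100a4, Fap and Prrx1 were at or below 50 units on both, and Col1a1, Col3a1, Dcn, Lum and Twist2 with them on the knockout ones. The part of other cell types in the 72 h differences was not tested.

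Promoters of the genes were read from RefSeq's windows of 300 bases, from 250 before to 50 after the gene start, in build GRCm38.p6. Windows were held for 31 of the 37 genes, all but Actb, Pxn, Tgfb1i1, Csrp2, Itga6 and Itgb3. The CArG box, searched on both strands, lay in 4 of the 31 windows (12.9%), those of Actg1, Myl6, Vcl and Lima1, beside 1.81% of 27025 genes. The windows of Actg1, Vcl and Lima1 are shown because their genes differed in their calls: Actg1 and Vcl were called in no comparison, and Lima1 rose in wild-type cells. Capitals mark the CArG box, and each line runs 5′ to 3′ on the gene's strand.
Actg1, chr11:120348446-120348745, minus strand: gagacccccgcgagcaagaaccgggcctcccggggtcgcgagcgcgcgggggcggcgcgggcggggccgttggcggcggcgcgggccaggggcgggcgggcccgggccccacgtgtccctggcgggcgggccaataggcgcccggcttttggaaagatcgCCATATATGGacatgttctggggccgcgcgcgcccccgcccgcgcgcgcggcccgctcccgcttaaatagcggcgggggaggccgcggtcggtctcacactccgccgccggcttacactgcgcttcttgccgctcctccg
Vcl, chr14:20929148-20929447, plus strand: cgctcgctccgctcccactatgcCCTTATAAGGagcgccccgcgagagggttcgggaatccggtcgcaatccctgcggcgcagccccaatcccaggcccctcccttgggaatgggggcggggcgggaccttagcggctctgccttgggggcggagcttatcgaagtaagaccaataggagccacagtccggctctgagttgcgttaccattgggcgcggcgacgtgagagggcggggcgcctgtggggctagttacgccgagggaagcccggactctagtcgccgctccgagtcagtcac
Lima1, chr15:99820100-99820399, minus strand: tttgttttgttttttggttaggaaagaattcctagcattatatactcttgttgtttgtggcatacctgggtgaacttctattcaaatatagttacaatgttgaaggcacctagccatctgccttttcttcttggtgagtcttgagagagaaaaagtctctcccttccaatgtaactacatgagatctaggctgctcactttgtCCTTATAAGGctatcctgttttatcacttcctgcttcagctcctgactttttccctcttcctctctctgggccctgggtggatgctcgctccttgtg
The box begins 90 bases before the gene start in Actg1, 227 in Vcl and 47 in Lima1, and 50 in Myl6. Vcl and Lima1 share the same letters in it. None of the 10 genes lower in knockout cells at 72 h is among these 4, but of those 10 Tgfb1i1 had no window to search. The motif GGAATG (MCAT, read by TEAD factors) lay in 7 of 31 windows (22.6%, beside 16.6% of all genes), among them Flna, Cald1 and Itgb1. TGANTCA (AP-1) lay in 5 (16.1%, beside 8.97%), among them Cald1 and Zyx, and AGGTCA, the half-site of RA receptors, in 5 (16.1%, beside 18.1%), among them Tpm4 and Zyx. A match describes letters in this window only.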

How the data were processed

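The 18 arrays were single-colour Affymetrix 3′ expression arrays. The authors deposited 1 linear signal intensity per probe set, made with MAS5 per the submitters' processing notes; the version is not given in the sources used here. With the highest and lowest 2% of values trimmed, the mean of each deposited array was 500.

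Intensities were rescaled to that trimmed mean and put on the log2 scale with a floor of 50. Of 45101 probe sets, 34958 had 1 symbol in the platform annotation, 932 had several and 9211 were not listed; 64 control probe sets stood for no gene. Each gene was read from its brightest probe set (highest mean log2). A gene was tested where at least 2 arrays reached 100. One model of 16 arrays in 6 groups was fitted over all 11387 genes (10 residual degrees of freedom) with limma 3.58.1 (lmFit, eBayes with an intensity trend) in R 4.3.3, and a model of the 8 control arrays for LIF (10475 genes, 5 residual degrees of freedom). Adjusted p-values are Benjamini-Hochberg over all genes of the fit. The steps were tested on simulated data.

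The 37 genes and all lists were chosen with earlier results of these data known; 1 list is not reported here. Values in every sample are given for up to 8 called genes with the largest differences whose groups did not overlap in a comparison, every gene called between genotypes is named, and of other lists up to 3 called genes with the smallest adjusted p. The alternatives tried were a floor of 100, log2(signal + 32), quantile normalization, no filter or 200, the mean of all probe sets, no trend, the replicate number as a block, fewer arrays in the fit, exchanged LIF labels and each array left out.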

Additional observations from a re-analysis of the deposited data

Results flagged for a closer look

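Cd44 was picked out because its 72 h response differed between the genotypes. The difference, knockout minus wild type, was -1.84 (SE 0.28) on the log2 scale as computed from values set to 50, and its groups did not overlap at 72 h. Both wild-type 72 h arrays (178 and 181 units) stood above both knockout ones (37.7 and 33.1 units). Cd44 reached 100 units on the wild-type 72 h arrays alone and passed the filter on dim genes because of them. It had to be higher there to be tested at all, so its call in that comparison adds nothing to these levels. The second probe set of Cd44 gave -1.41 (SE 0.32).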

How the results depend on the processing

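Of 53 calls of a gene in a comparison, 23 held under all 11 alternatives that changed the processing or the fit, 25 held with each array left out in turn, and 21 held under both; 3 calls, all of Cd44, could not be tested under some of them, the fits without a wild-type 72 h array included. One reversed: Itgb1 in knockout cells at 72 h, at -0.0146 with the mean of all probe sets. The numbers of genes called that moved by over 1.5 times follow. At 8 h, a floor of 100 gave 1 in wild-type cells in place of 0. At 72 h in knockout cells, requiring a log2 difference of 1 gave 6 in place of 11, and leaving out an array gave 8 to 12. For wild-type cells at 72 h the range over left-out arrays was 11 to 19 in place of 20. Between control genotypes (7), the mean of all probe sets gave 3, a fit of only the arrays compared 1, control replicate 1 of both genotypes left out 2, a log2 difference of 1 gave 1, chromosomes 8 and 19 left out 3, and each array left out 4 to 6. At 8 h between genotypes (4), these were 0 for a log2 difference of 1, 1 without the chromosomes and 1 to 4 without an array. At 72 h between genotypes (10) the range was 5 to 8. For the difference of the 72 h responses (1), a floor of 100 gave 4, log2(signal + 32) 0, a filter at 200 0, the mean of all probe sets 3, no trend 2, only the arrays compared 0, exchanged LIF labels 2, control replicate 1 left out 0, and each array left out 0 to 1. LIF withdrawal (0) gave 1 with exchanged LIF labels. With replicate number added as a block, counts were 1 for 8 h and 20 for 72 h in knockout cells (14 higher and 6 lower), 17 between genotypes at 72 h (2 higher and 15 lower), 3 for the difference of the 72 h responses and 2 for LIF withdrawal. The replicate numbers are given in part by the labels and otherwise in accession order, and the labels do not say whether they pair samples. Of 36 same-numbered pairs of arrays, 33 had deviations correlated above 0.1 (0.03 to 0.50 over all 36). Of 16 arrays, 15 correlated best with their own number. The causes of these shifts were not tested.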
